A study of Mus musculus with 16 samples.

Results

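Immediate early genes are the first genes that a neuron transcribes after it has been active. The 10 described here, chosen by name, were Fos, Fosb, Junb, Egr1, Arc, Npas4, Nr4a1, Bdnf, Dusp1 and Ier2, out of 55404 genes in the table. All 10 were measured in whole brain of untreated males of 5 months, 8 per genotype (Tecpr2 ki/ki or wt/wt), and each mouse gave 1 library. The ki/ki mice are homozygous for the L1152fs frameshift, which was made with CRISPR/Cas9 in C57BL/6J zygotes, and the wt/wt mice carry the unedited gene. How many founders gave rise to the line, at what time of day the brains were taken and how the mice were handled before is not given in the sources used here. The question asked was whether these genes differed between the genotypes or varied from mouse to mouse, and whether they varied together.

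When a neuron fires, calcium enters through NMDA receptors and voltage-gated channels and activates CaM kinases and the MAP kinase cascade. These switch on transcription factors that are already present, among them CREB and SRF, so that immediate early genes are transcribed without new protein synthesis. Their mRNA is short-lived, and its level in a brain therefore reflects the activity shortly before the tissue was taken. Many of the products are themselves transcription factors that switch on a later wave of genes, in large part secreted peptides and growth factors. In whole tissue, fewer active cells and less mRNA per active cell cannot be told apart.

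The tissue carried the markers of a whole brain in both genotypes. The mean value of Snap25 of neurons was 15250.9 in ki/ki and 15744.9 in wt/wt mice, and that of Mbp of oligodendrocytes 25729.1 and 25686.1. Slc17a7 of cortical and hippocampal excitatory neurons had mean values of 5900.2 and 6005.9, Drd1 of the striatum 349 and 378, Gabra6 of cerebellar granule cells 861 and 881, Slc6a5 of hindbrain glycinergic neurons 393 and 376, and Cx3cr1 of microglia 423 and 393. None of these 7 passed the test. Aqp4, the water channel of astrocytes, rose from 2046.2 ± 65.9 to 2258.2 ± 29.6 (SD, n = 8 each), a log2 fold change of 0.14 (limma, Benjamini-Hochberg adjusted p = 3.75e-05). The values are normalized read counts that the authors rounded to whole numbers, and they added up to between 11964284 and 12252324 per mouse. Between 9.23 and 15.39 megareads on genes per mouse lay behind them, an estimate from the gaps that division leaves among low values. Tecpr2 itself, the edited gene, fell from 963 ± 24.4 in wt/wt to 300 ± 14.1 in ki/ki mice, without overlap (log2 fold change -1.68, limma, adjusted p = 2.16e-47).

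The promoters of 7 of the 10 genes were read from RefSeq windows of the GRCm38.p6 build (250 bases before the start). The windows of 4 genes that recur in the results below are shown, each 5′ to 3′ on the strand of its gene, with motif matches in capitals. They are the short CREB site (TGACG or CGTCA, that is, either strand), the full CREB site TGACGTCA and, on the strand of the gene only, the TATA element TATAAA. Fos was read from chr12:85473640-85473889 (plus strand), Npas4 from chr19:4989972-4990221 (minus), Nr4a1 from chr15:101266596-101266845 (plus) and Dusp1 from chr17:26508473-26508722 (minus).
Fos: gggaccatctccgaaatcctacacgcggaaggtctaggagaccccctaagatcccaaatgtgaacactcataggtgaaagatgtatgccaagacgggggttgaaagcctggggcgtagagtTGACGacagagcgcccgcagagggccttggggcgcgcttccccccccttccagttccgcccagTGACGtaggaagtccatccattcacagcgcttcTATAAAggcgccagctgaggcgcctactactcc
Npas4: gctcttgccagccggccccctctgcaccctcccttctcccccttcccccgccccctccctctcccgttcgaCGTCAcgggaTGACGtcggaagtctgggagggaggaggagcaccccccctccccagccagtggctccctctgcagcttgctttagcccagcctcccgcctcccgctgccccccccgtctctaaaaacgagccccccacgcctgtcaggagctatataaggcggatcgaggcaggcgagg
Nr4a1: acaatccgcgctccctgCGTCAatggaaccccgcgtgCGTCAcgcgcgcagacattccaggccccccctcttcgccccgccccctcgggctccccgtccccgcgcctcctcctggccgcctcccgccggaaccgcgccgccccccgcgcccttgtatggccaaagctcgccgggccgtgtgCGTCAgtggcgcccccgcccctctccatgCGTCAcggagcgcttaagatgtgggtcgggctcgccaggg
Dusp1: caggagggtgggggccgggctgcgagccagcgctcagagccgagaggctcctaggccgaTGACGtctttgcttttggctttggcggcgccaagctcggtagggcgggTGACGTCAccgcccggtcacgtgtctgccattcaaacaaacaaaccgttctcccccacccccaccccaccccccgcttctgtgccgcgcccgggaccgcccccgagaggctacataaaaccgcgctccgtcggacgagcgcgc
A short CREB site occurred in the windows of 7 of these 7 genes, against 17.8% of 32851 windows of all genes. Nr4a1 held 4 of them, Dusp1 3, Fos and Npas4 2 each, and Junb and Fosb 1 each. In Bdnf, which has 7 start sites in this table, 1 of the 7 windows held the short site, 35 bases before its start. A gene with several windows has more chances of a match. The full site, which contains the short one on both strands and occurred in 1.55% of all windows, was found in Dusp1 alone. TATAAA was found in Fos alone (7.59% of all windows) and the EGR motif GCGNGGGCG in Fosb and Nr4a1 (4.7%). The AP-1 motif TGANTCA occurred in 1 Bdnf window (6.75%), and a CArG box, the site of SRF, in none of the 7 (1.47%). Sites farther than 250 bases before the start and looser forms of a motif were not sought. Arc, Egr1 and Ier2 had no window. The absence of a match therefore does not mean that a gene lacks the site. A match is a description of letters and not a measurement of binding.

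Across the 10 genes, no difference between the genotypes passed the test. At an adjusted p under 0.1, limma called 0 of the 10, with 0.133% of the 23244 tested genes called. Bdnf alone had an unadjusted p under 0.01, and the same 1 gene was under 0.05. Of all tested genes 1.56% were under 0.01 and 6.08% under 0.05. The adjusted p of the 10 lay between 0.623 and 0.991. In ki/ki mice 8 of the 10 were lower and 2, Arc and Ier2, were higher. Their median log2 fold change was -0.05 (range -0.17 to 0.14), beside -0.000981 over all tested genes, of which 50.5% were lower.

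**Figure D1:**
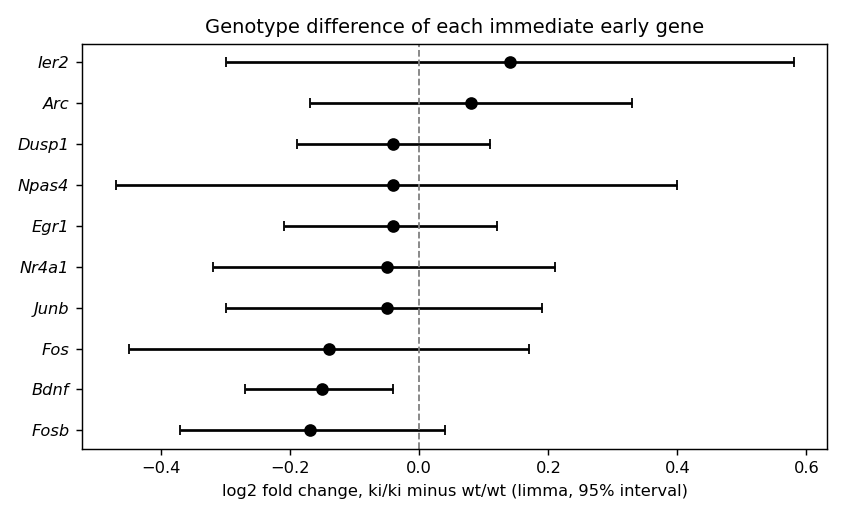
Log2 fold change of each of the 10 immediate early genes, ki/ki minus wt/wt (x axis), with the 95% interval of limma as bars, 8 mice per genotype. The intervals of 9 genes include 0, and that of Bdnf runs from -0.27 to -0.04.

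Fos, Fosb and Junb encode subunits of AP-1, the dimeric transcription factor that Fos and Jun proteins form. The value of Fos (ENSMUSG00000021250, chromosome 12) was lowest at 149, 220 at the median and highest at 274 in ki/ki mice, and 190, 237.5 and 312 in wt/wt mice. The groups overlapped, with 6 of 8 ki/ki mice inside the wt/wt range and 2 below it. The log2 fold change was -0.14 (95% interval -0.45 to 0.17, exact two-sided permutation p = 0.33). Fosb (ENSMUSG00000003545, chromosome 7), whose splice form ΔFosB accumulates with repeated activity, ran from 92 (median 134) to 164 in ki/ki and from 119 (median 154.5) to 167 in wt/wt mice. Fosb had a log2 fold change of -0.17, which was -0.09 without ki/ki mouse 6 (interval of the former -0.37 to 0.04, exact permutation p = 0.18). Junb (ENSMUSG00000052837, chromosome 8) ran from 219 (median 274) to 360 in ki/ki and from 228 (median 290) to 361 in wt/wt mice, so that the ranges nearly coincided (log2 fold change -0.05, interval -0.3 to 0.19). In the GRCm38 annotation its last 351 bases overlap Prdx2 on the opposite strand, and whether reads were counted by strand is not given in the sources used here.

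Egr1, Npas4 and Nr4a1 encode transcription factors of other families. Egr1 (ENSMUSG00000038418, chromosome 18), a zinc-finger factor, had values of 1838 (lowest), 2365.5 (median) and 2701 (highest) in ki/ki mice. In wt/wt mice these were 2109, 2291.5 and 2599. The ki/ki mice spread to both sides, with 3 below and 1 above all wt/wt mice, and the log2 fold change was -0.04 (interval -0.21 to 0.12). Npas4 (ENSMUSG00000045903, chromosome 19), a factor that responds to calcium entry and adjusts inhibitory synapses, ran from 115 (median 169.5) to 238 in ki/ki and from 121 (median 148.5) to 312 in wt/wt mice. With a 2.71-fold span over the 16 mice, it was the most variable of the 10 between its extremes, and the log2 fold change was -0.04 with a wide interval (-0.47 to 0.4). Nr4a1 (ENSMUSG00000023034, chromosome 15), an orphan nuclear receptor, ran from 465 (median 642.5) to 844 in ki/ki and from 576 (median 645) to 790 in wt/wt mice. Again the ki/ki mice reached further on both sides, with 2 below and 1 above all wt/wt mice (log2 fold change -0.05, interval -0.32 to 0.21). The size of these spreads was not tested between the genotypes.

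Arc, Bdnf and Dusp1 encode effectors that act at the synapse or on signalling. The value of Arc (ENSMUSG00000022602, chromosome 15), which promotes the removal of AMPA receptors from synapses, was lowest at 928, 1224 at the median and highest at 1659 in ki/ki mice, and 967, 1144 and 1481 in wt/wt mice. The ki/ki mice 1 and 2, at 1659 and 1521, exceeded the highest wt/wt mouse, mouse 6 was under the lowest one, and the log2 fold change was 0.08 (interval -0.17 to 0.33, exact permutation p = 0.515). Dusp1 (ENSMUSG00000024190, chromosome 17), a phosphatase that switches MAP kinases off, ran from 245 (median 260.5) to 316 in ki/ki and from 221 (median 271.5) to 341 in wt/wt mice. All 8 ki/ki mice were inside the wt/wt range, and 7 of them lay between 245 and 267 (log2 fold change -0.04, interval -0.19 to 0.11). Ier2 (ENSMUSG00000053560, chromosome 8), which encodes a nuclear protein, was the lowest of the 10 in value, from 47 (median 76.5) to 111 in ki/ki and from 45 (median 64) to 87 in wt/wt mice. Of the ki/ki mice 3 exceeded the highest wt/wt mouse, but the log2 fold change of 0.14 had an interval of -0.3 to 0.58.

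Bdnf (ENSMUSG00000048482, chromosome 2), the growth factor that binds the receptor TrkB, came nearest to a difference. In ki/ki mice 1 to 8 its values were 252, 258, 219, 258, 248, 204, 240 and 209. In wt/wt mice 1 to 8 they were 269, 256, 257, 225, 254, 289, 247 and 305. The ki/ki mice 3, 6 and 8 lay below all wt/wt mice, the other 5 were inside the wt/wt range, and none was above it. The means were 236 ± 22.1 and 263 ± 24.9 (SD, n = 8 each), with a log2 fold change of -0.15 (standard error 0.0575). The unadjusted p was 0.00922 in limma and 0.0399 in the exact permutation test, and the limma p adjusted over all tested genes was 0.623. With the SD pooled over both genotypes, Bdnf was the steadiest of the 10 and its difference was 1.13 times that SD, whereas the signed ratio of the others lay between -0.7 and 0.33. The count at this threshold rested on single mice, since it was 0 without any 1 of 9 mice (ki/ki mice 3, 6, 7 and 8 and wt/wt mice 1, 2, 3, 6 and 8). In GRCm38, Bdnf overlaps the antisense gene Gm45346 over 1892 bases.

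**Figure D2:**
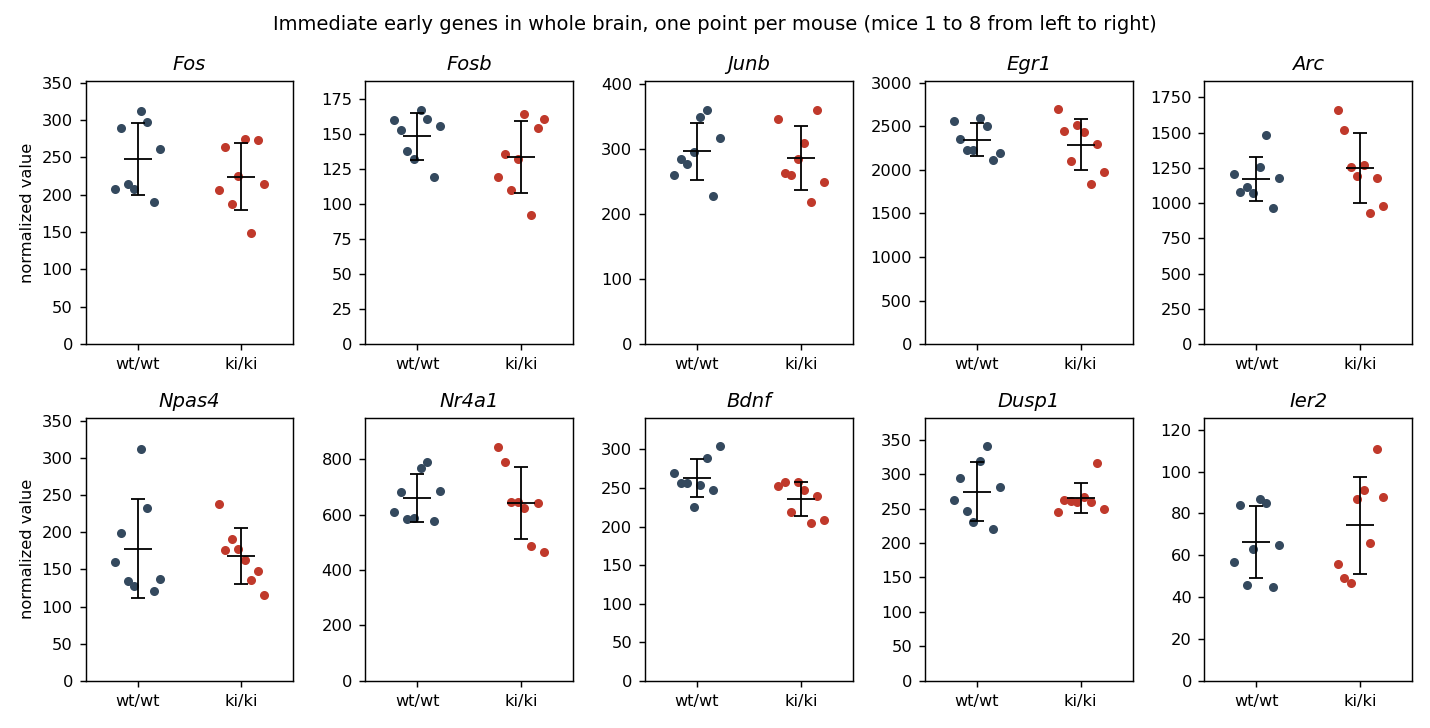
Normalized value (y axes, from 0) of each immediate early gene in the 8 wt/wt and 8 ki/ki mice, with 1 point per mouse, mice 1 to 8 from left to right, and the mean and SD as bars. The genotypes overlap in each panel, and Npas4 reaches from 115 to 312.

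Per kilobase of annotated exon, Egr1 had the highest mean level of the 10 (517), followed by Arc (395), Nr4a1 (186), Junb (127) and Fos (100). The ranges over mice of Egr1 (410 to 602) and Arc (304 to 543) overlapped, as did those of Junb (95.2 to 157) and Fos (63.4 to 133). Nr4a1, from 133 to 241, overlapped Junb as well but not Arc. Dusp1 (81.5), Ier2 (46.3), Npas4 (41.8), Bdnf (40.1) and Fosb (22.6) followed, and the ranges of Ier2 (29.6 to 72.9), Npas4 (27.8 to 75.4) and Bdnf (32.8 to 49.1) overlapped, while Fosb (14.7 to 26.7) was under the lowest Bdnf value. The exon lengths are from GRCm38 and join the exons of all transcripts, which understates the level of a gene with many alternative first exons such as Bdnf.

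The mice of 1 genotype differed far more in these genes than in most others. Within a genotype, the SD of the 10 genes had a median of 0.238 on the log2 scale, beside 0.0973 over 13765 tested genes with a mean value of at least 50. Ier2 (0.418), Npas4 (0.409) and Fos (0.291) spread most and lay at percentiles 99.9, 99.8 and 99.2 of these genes, and 7 of the 10 were over the 90th percentile. Bdnf (0.136, percentile 70.7) and Egr1 (0.156, percentile 78.2) spread least with the genotypes pooled, while Dusp1 did among ki/ki mice alone (0.111) and Egr1 among wt/wt mice alone (0.114). Part of such a spread is counting error, which is larger for low values. The variance of the values divided by their mean, about 1 for counting alone, had a median of 8.28 over the 10 genes and 1.44 over the 13765. On this measure Arc (35), Egr1 (26) and Nr4a1 (18.6) stood highest and Bdnf (2.22) lowest, and 9 of the 10 were over the 90th percentile. For 9 of the 10 genes the difference between the genotypes was smaller than the SD between mice.

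The deviations ran together in the same mice. Among wt/wt mice, mouse 7 was the lowest of its genotype for 9 of the 10 genes, mouse 6 was above the wt/wt median for 10, and mouse 5 was above it for 9 and highest for 5. Among ki/ki mice, mouse 6 was above the median for 0 of the 10 genes and had the lowest value of all 16 mice for 6 of them. The ki/ki mouse 1 went apart, with the highest values of its genotype for Egr1 (2701), Arc (1659), Npas4 (238) and Nr4a1 (844) but a value of 56 for Ier2, below the ki/ki median of 76.5. In ki/ki mouse 7 the order was the other way round, with the highest Junb (360), Dusp1 (316) and Ier2 (111) and a Npas4 value of 148 below the median.

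**Figure D3:**
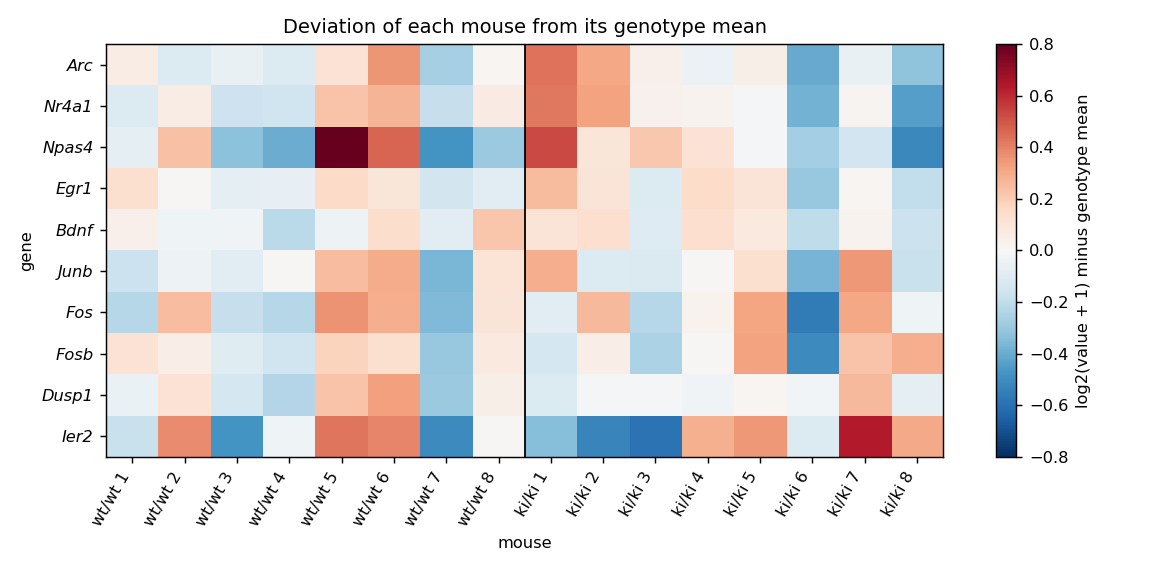
Deviation of each mouse (x axis) from the mean of its genotype for each gene (y axis), as log2(value + 1) minus the genotype mean, in colour from blue (lower) to red (higher). The columns of wt/wt mouse 7 and ki/ki mouse 6 are blue for nearly all genes and that of wt/wt mouse 6 is red, and ki/ki mice 1 and 7 hold both colours. The order of the genes was set after their correlations had been seen.

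Correlations between the 10 genes were computed for all 45 pairs over the 16 mice, after the genotype mean had been subtracted, so that a shift between genotypes cannot produce them. The median Pearson r was 0.59 (Spearman's rho 0.52), and 44 of 45 pairs were positive. For comparison, the median r of each gene with the other 13764 genes lay between -0.02 and 0.01, and its 95th percentile between 0.41 and 0.47. After Benjamini-Hochberg adjustment over the 45 pairs, 24 had a p under 0.05 for r and 16 for rho in permutations of mice within the genotype, 15 of them in both. Without the 2 mice farthest from the median of the first gene of a pair, the 24 pairs had r between 0.37 and 0.87. The count rested in part on single mice, being 14 without wt/wt mouse 7, 15 without wt/wt mouse 6 and 31 without ki/ki mouse 1. The 45 pairs share 10 genes and 16 mice and are not independent of each other.

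Arc and Nr4a1 had the highest r of all pairs, 0.92 (rho = 0.83) over the 16 mice and 0.87 without 2 mice (permutation test, p = 7e-05 for r and 0.00041 for rho, adjusted p = 0.00157 and 0.00705). Npas4 and Nr4a1 had the highest rho, 0.89, with r = 0.80 (r without 2 mice 0.77, permutation p = 4e-05 and 7e-05, adjusted p = 0.00157 and 0.00315). The pair of Egr1 and Arc had r = 0.83 and rho = 0.76 (r without 2 mice 0.69, permutation p = 0.0004 and 0.00171, adjusted p = 0.0045 and 0.00962). Among the AP-1 subunits, Fos and Fosb had r = 0.82 and rho = 0.82 (r without 2 mice 0.72, permutation p = 0.00025 and 0.00047, adjusted p = 0.00375 and 0.00705). Over the pooled mice Ier2 stood apart, with a median r of 0.22 with the other 9 genes, against 0.47 to 0.69 for the rest. Its r was 0.01 with Nr4a1 and -0.09 with Arc, the 1 negative pair, whereas with Dusp1 it was 0.68 (rho 0.62, r without 2 mice 0.57, permutation p = 0.00149, adjusted p = 0.00838). These pooled values joined unlike ones. In wt/wt mice alone the r of Ier2 ran from 0.62 (Arc) to 0.92 (Fos), except 0.23 with Bdnf. In ki/ki mice it ran from -0.54 (Npas4) to 0.62 (Fosb).

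The correlations were also computed within each genotype. Over the 8 wt/wt mice, 45 of 45 pairs were positive with a median r of 0.78 (0.19 to 0.97), and over the 8 ki/ki mice 36 were, with a median of 0.47 (-0.54 to 0.97). An adjusted p under 0.05 for r was reached by 25 pairs in wt/wt and by 7 in ki/ki mice (exact permutation over all orders of 8 mice). For rho, no ki/ki pair reached it in the same permutations. The lowest adjusted p was 0.103, shared by Egr1 with Bdnf and Npas4 with Nr4a1. In wt/wt mice the lowest one for rho was 0.0166, among others for Nr4a1 with Dusp1. In ki/ki mice Arc, Nr4a1, Npas4, Egr1 and Bdnf were correlated at r of 0.64 to 0.97, while the r of Npas4 with Ier2 was -0.54 and with Dusp1 -0.23. In wt/wt mice the latter 2 values were 0.84 and 0.87. Bdnf was the exception in wt/wt mice, with an r of 0.19 with Npas4 and 0.20 with Egr1, where ki/ki mice had 0.64 and 0.95. The difference in r between the genotypes was tested for each pair by exact permutation of the genotype labels over 12870 splits, a test chosen after the correlations had been seen. Of the 45 pairs, 31 had a lower r in ki/ki mice, 11 had an unadjusted p under 0.05 and 0 had an adjusted p under 0.05. In these exact permutations the lowest adjusted p was 0.0559, shared by Npas4 with Ier2 (unadjusted p = 0.00264), Nr4a1 with Dusp1 (r of -0.01 and 0.97, p = 0.00326) and Nr4a1 with Ier2 (-0.43 and 0.88, p = 0.00373). No difference in r between the genotypes thus passed the adjustment, and 8 mice per genotype leave wide errors on each r. Among ki/ki mice Dusp1 varied little (log2 SD 0.111, beside 0.221 in wt/wt mice), and only mouse 7 lay outside 245 to 267. The r of Dusp1 in ki/ki mice is therefore sensitive to counting error and to this 1 mouse.

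**Figure D4:**
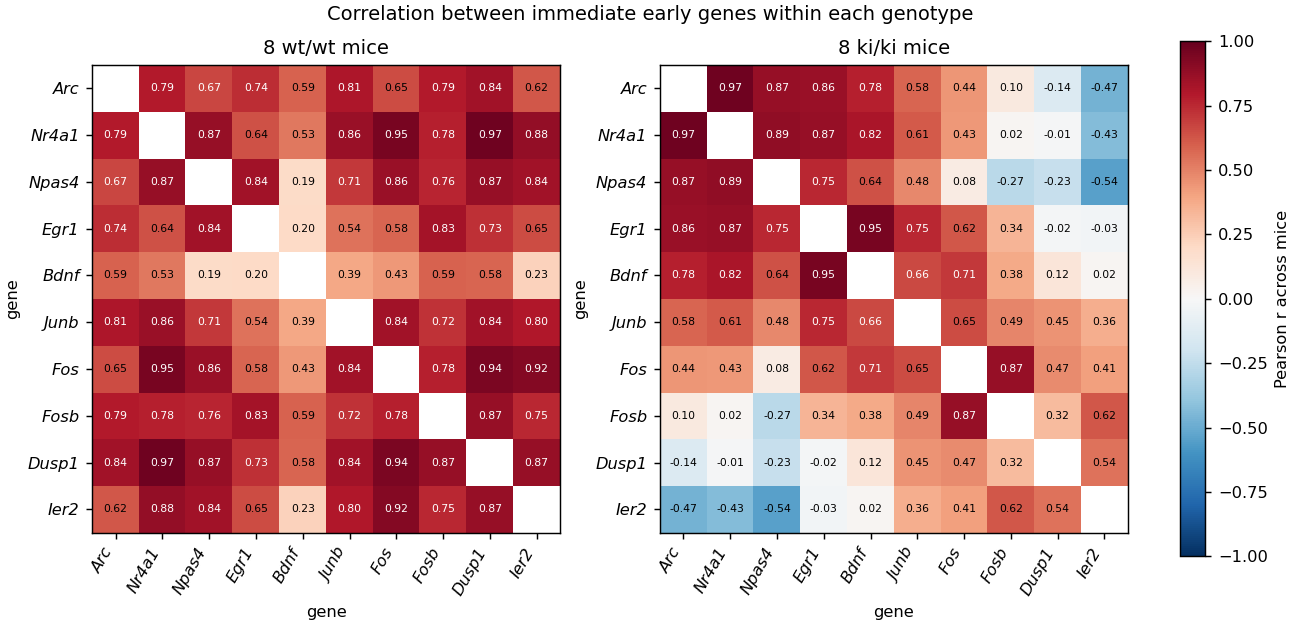
Pearson r between each pair of immediate early genes over the 8 wt/wt mice (left) and the 8 ki/ki mice (right), printed in each cell and coloured from blue (-1) to red (1). All cells are positive on the left, and the 9 negative pairs on the right lie between Arc, Nr4a1, Npas4 or Egr1 and Dusp1 or Ier2, or between Fosb and Npas4.

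The genes that followed the 10 most closely were sought among all tested genes with a mean value of at least 50, by the r over 16 mice with the mean standardized deviation of the 10. The list was led by Nrp1 (0.76), a receptor of semaphorins and VEGF, and held Egr4 (0.75) and Egr3 (0.72), zinc-finger factors of the same family as Egr1. The others were Gm3055 (0.74), Gm47075, Cnep1r1 and Pfkfb3 (0.73 each), Strada and P4ha1 (0.72 each) and Rer1 (0.71). Gm47075, annotated in GRCm38 at chr13:93312041-93314055, lies wholly inside Homer1 on the same strand, an immediate early gene of the postsynaptic density whose own r was 0.53. None of these 10 genes differed between the genotypes (limma, adjusted p of 0.901 to 0.996). They were chosen for a high r, which is therefore given without a test.

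Values that could move with the 10 genes were set beside them in 100 relations over the 16 mice. These were the handling-sensitive genes Hspa1a, Fkbp5 and Sgk1, the summed markers of cortex and hippocampus, striatum, cerebellum, hindbrain, endothelium and microglia, and the reads per library. With the mice of both genotypes pooled after subtracting the genotype means, none had a p under 0.05 for r or rho after adjustment over the 100 relations (permutation within genotype). The median r over the 10 genes was 0.23 for Hspa1a, a heat shock gene (range 0.1 to 0.61), -0.19 for Fkbp5 and -0.06 for Sgk1, both induced by glucocorticoids. It was 0.21 for the 7 cortical and hippocampal markers, 0.16 for the 8 striatal markers and 0.09 for the 9 microglial markers. For the 9 endothelial markers it was -0.09, for the 7 hindbrain markers -0.07 and for the reads per library 0.16. The hindbrain sum (median 495.5 in ki/ki and 484 in wt/wt mice) was mostly Slc6a5 (means 393 and 376), with its Hox genes near the floor. The 6 cerebellar markers had a negative r with 10 of the 10 genes (median -0.39, -0.52 to -0.25), which are not separate observations. Their sum ranged from 8327 to 9953 in ki/ki and from 7858 to 10409 in wt/wt mice. In wt/wt mice the sign rested on 2 mice. There r lay between -0.64 and -0.05, but between 0.1 (Bdnf) and 0.58 (Npas4) without the 2 most extreme cerebellar sums. In ki/ki mice the same step left r between -0.86 (Fos) and 0.0 (Npas4).

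For several of these values the pooled r joined opposite signs. The median r was 0.32 in ki/ki and -0.34 in wt/wt mice for the endothelial markers, and -0.13 and 0.42 for the cortical and hippocampal ones. It was 0.32 and -0.04 for the striatal markers, 0.02 and -0.15 for the hindbrain markers and 0.04 and -0.47 for Fkbp5. For the microglial markers the signs were opposite for each gene. Over the 8 wt/wt mice, 10 of the 10 genes had a positive r with the microglial sum (median 0.75, 0.41 to 0.97), and over the 8 ki/ki mice 10 of 10 had a negative r (median -0.5, -0.83 to -0.02). Since the 10 genes run together within a genotype, these are not 10 separate observations. Junb had the values farthest apart, with r = 0.97 (rho = 0.99) in wt/wt mice (exact permutation p = 9.92e-05 for both, 0.00992 after adjustment over the 100 relations within that genotype). In ki/ki mice the r of Junb was -0.83 (rho = -0.86, exact permutation p = 0.0105 and 0.0107, adjusted p = 0.999 and 0.536). Without the 2 mice with the most extreme microglial sums, r of Junb was 0.99 in wt/wt and -0.83 in ki/ki mice. The same step lowered r for the other genes in wt/wt mice. It then lay between -0.0 (Bdnf) and 0.69 (Nr4a1), with Arc at 0.37 and Dusp1 at 0.47. In ki/ki mice Dusp1 turned from -0.49 to 0.35, and the others lay between -0.62 (Egr1) and -0.28 (Nr4a1). Over all 8 wt/wt mice, Arc (0.88), Nr4a1 (0.83), Dusp1 (0.81), Fos (0.76) and Ier2 (0.75) also had an unadjusted p under 0.05 for r. Over all 8 ki/ki mice Ier2 did (-0.77), and none of these passed after adjustment. The difference in r between the genotypes was tested by exact permutation over the 12870 splits, after the values had been seen. For Junb this exact permutation gave p = 0.000622, which was 0.0622 after adjustment. Of the 100 relations 5 had an unadjusted p under 0.05, 4 of them microglial and 1 endothelial, and 0 had an adjusted one. The microglial sum was 2355 to 2522 in ki/ki and 2202 to 2405 in wt/wt mice. The part of all these values in the shared variation was not tested.

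The search was widened to further immediate early genes. Of 37 others listed, 36 passed the filter on low values and 1, Fosl1, did not. At an adjusted p under 0.1, 0 of the 36 differed, while 13 were higher and 23 lower in ki/ki mice (median log2 fold change -0.01). At an unadjusted p under 0.01 in limma, 3 were lower and 1 was higher, beside 0.701% of all tested genes lower and 0.856% higher. The same 4 were the ones under 0.05, beside 6.08% of all tested genes. Those lower were Nr4a3, a relative of Nr4a1 (414 ± 48.6 in ki/ki, 459 ± 18.1 in wt/wt, log2 fold change -0.16), Fosl2, a further AP-1 subunit (-0.13), and Nfil3 (-0.24), with adjusted p of 0.536, 0.555 and 0.612. Bhlhe40 was the higher one (0.09, adjusted p = 0.531). These 4 were named for their unadjusted p after the values had been seen. Among 31 genes upstream, receptors, channels, kinases and the factors that they act on, 17 were higher and 14 lower, and 0 had an adjusted p under 0.1 in limma. At an unadjusted p under 0.01 there were 3, Rps6ka1 higher and Mef2c and Camk4 lower (1.56% of all tested genes), and under 0.05 there were 7 (6.08% of all tested genes). Rps6ka1 and Mef2c were named after their values had been seen. The nearest was Camk4, the kinase that phosphorylates CREB in the nucleus, at 1305.6 ± 35.5 in ki/ki and 1398.6 ± 36.3 in wt/wt mice (log2 fold change -0.10, adjusted p = 0.135).

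Genes of the later wave were taken from the same fit. Of 14 late activity-response genes, listed with earlier results of these data known, 14 had a lower mean in ki/ki mice, beside 50.5% of all tested genes. Their median log2 fold change was -0.105. At the adjusted threshold 1 was called, beside 0.133% of all tested genes. Penk, which encodes the enkephalin precursor, fell from 1215.9 ± 58.5 in wt/wt to 1091.6 ± 33.1 in ki/ki mice (log2 fold change -0.15, limma, adjusted p = 0.00219). The groups were narrowly apart, with 1149 as the highest ki/ki and 1155 as the lowest wt/wt value. The share of all genes without overlap was not counted. At an unadjusted p under 0.01, 6 of the 14 were lower, beside 0.701% of all tested genes lower at that threshold. Besides Penk these were Scg2 (-0.09, adjusted p = 0.106), Nptx2 (-0.18, 0.225), Inhba (-0.23, 0.343), Vgf (-0.20, 0.404) and Sorcs3 (-0.10, 0.588). Scg2 and Vgf encode granins of dense-core vesicles, Nptx2 a secreted pentraxin that gathers AMPA receptors and Inhba the activin subunit βA. The summed value of the 14 ran from 7497 (median 7860) to 8050 in ki/ki and from 8119 (median 8551) to 8789 in wt/wt mice. Over the same mice the summed value of the 10 immediate early genes ran from 4377 (median 5738.5) to 6668 and from 4823 (median 5624) to 6546. The sums of the late genes did not overlap between the genotypes, and those of the immediate early genes did. As the late genes were listed with earlier results known, the separation of their sum is no independent support for a difference. How often sums of other genes separate was not counted. A sum is carried by its highest genes, and the 10 varied far more between mice than most genes. The overlap therefore does not show that the shift of the 10 was smaller. The r of these late genes with the mean deviation of the 10 was 0.71 for Vgf and 0.60 for Pcsk1, both prohormone-related, but 0.04 for Scg2 and -0.42 for Penk. All other late genes lay between -0.09 (Gpr3) and 0.25 (Sorcs3). Striatal markers moved in the same direction as Penk, which striatal neurons express strongly: 8 of 8 were lower, their sum was 6330 to 6743 in ki/ki and 6708 to 7188 in wt/wt mice, and none was at 0. Whether the striatal share of the tissue enters the difference in the late genes was not tested.

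**Figure D5:**
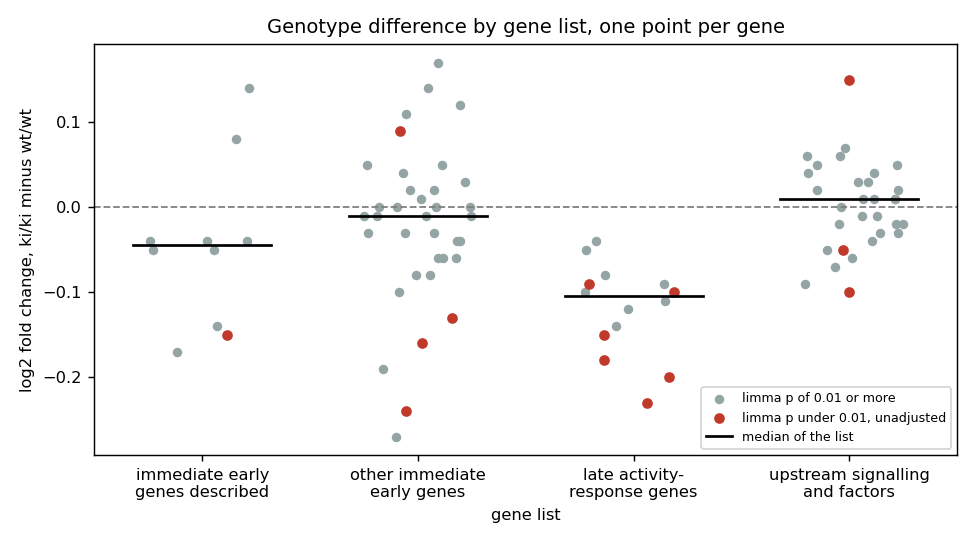
Log2 fold change, ki/ki minus wt/wt (y axis), of each gene in the 4 lists on the x axis, with 1 point per gene, red where limma's unadjusted p was under 0.01, and the median as a line. The 14 late genes all lie below 0, and the other lists lie on both sides of it.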

How the data were processed

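Whole brain RNA of 16 mice was sequenced as stranded total RNA after depletion of ribosomal RNA. Per the submitters' processing notes, reads were trimmed with Trim Galore 0.6.10 and cutadapt 3.4 and aligned with STAR 2.7.10b, and DESeq2 1.40.2 was the authors' tool. According to the methods, the genome was GRCm39 and reads were counted per gene with summarizeOverlaps. What the authors deposited is, per gene and mouse, a score: a normalized read number on a linear scale, rounded to an integer. The method of normalization is not named in the sources used here. Tables of single mice held the same values as the table of all (16 of 16). Normalization hides the sequencing depth, and rounding coarsens low values.

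Of 55404 genes, 52017 received a symbol from the GENCODE annotation of GRCm38, the source of the gene positions and exon lengths. A gene entered the test (23244 did) if its 16 values summed to more than 16 and at least 4 mice of either genotype were above 5. As the values are not counts, limma 3.58.1 (lmFit, eBayes with trend and robust, R 4.3.3) was used on log2(value + 1) with genotype as the only term and Benjamini-Hochberg adjustment over all tested genes, at the thresholds of the study, adjusted p under 0.1 and unadjusted p under 0.01. Fold changes on this scale understate the change of low genes. Single genes were also compared by exact two-sided permutation over 12870 splits of the mice (smallest possible p 0.000155). Correlations were tested two-sided with 100000 resamples of mice within the genotype, or with all 40320 orders of 8 mice within 1 genotype, in scipy 1.17.1 and numpy 2.4.6 under Python 3.11.15, with pandas 2.3.3 for tables and matplotlib 3.10.9 for figures. The limma steps were checked on simulated data.

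The 10 genes and all gene lists were chosen with earlier results of these data known. The genes named are the 10, Tecpr2, the list members with an adjusted p under 0.1, the 10 genes most alike, 3 handling-sensitive genes and 8 tissue markers; others are named as chosen after their values were seen, as are Homer1, Prdx2 and Gm45346 for their positions and the late genes at an unadjusted p under 0.01. Alternatives were other pseudocounts, no filter, rescaling, no robust step, a replicate block, a covariate and leaving out each mouse. The replicate numbers in the labels were not treated as pairs. RefSeq windows were not found for Arc, Egr1 and Ier2. A gene that falls under the naming rule is not reported here.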

Additional observations from a re-analysis of the deposited data

Results flagged for a closer look

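Dusp1 in ki/ki mouse 7 stood apart from its genotype, with a value of 316 where the other 7 ki/ki mice lay between 245 and 267. The gap to the nearest mouse was 0.690 of the range of the 8 mice, above the 95% critical value of Dixon for a group of 8. Chance passes this limit in about 1 of 20 groups, and 20 groups were checked, so that 1 is the number that chance gives. The same mouse also had the highest Junb (360) and Ier2 (111) of the ki/ki mice. Without it, the log2 fold change of Dusp1 was -0.08.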

How the results depend on the processing

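Each gene's log2 fold change was recomputed under 24 alternatives, 240 in all. In 233 of them the sign held, in none did a gene pass an adjusted p under 0.1 (lowest 0.42), and in 7, each leaving out 1 mouse, the sign turned. Junb became 0.0017 without ki/ki mouse 6, Npas4 0.0025 without ki/ki mouse 6, 0.04 without ki/ki mouse 8, 0.09 without wt/wt mouse 5 and 0.03 without wt/wt mouse 6, Nr4a1 0.01 without ki/ki mouse 8, and Dusp1 0.01 without wt/wt mouse 6. With any 1 mouse left out, Npas4 lay between -0.11 and 0.09, Nr4a1 between -0.11 and 0.01, Dusp1 between -0.08 and 0.01, Junb between -0.1 and 0.0017, Fos between -0.19 and -0.06, Fosb between -0.21 and -0.09, Egr1 between -0.08 and -2.5e-06, Arc between 0.02 and 0.14, Bdnf between -0.19 and -0.12 and Ier2 between 0.05 and 0.22. Leaving out 1 mouse moved the median log2 fold change of the 10 genes between -0.1 and -0.0 and the median pairwise r between 0.52 and 0.63. Within genotypes alone this r was 0.47 in ki/ki and 0.78 in wt/wt mice.

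The 1 gene at an unadjusted p under 0.01, Bdnf, became 0 genes without the filter on low values, with equal totals, with median-of-ratios factors, without the robust variance estimate and with a replicate block, and leaving out 1 mouse gave 0 to 1. Correlated pairs numbered 16 by rho and 14 to 31 with 1 mouse left out, beside 24. The late genes at an unadjusted p under 0.01 numbered 5 to 7.

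The replicate block joined the same-numbered mice of both genotypes. These had correlations between -0.039 and 0.149, with 1 of 8 over 0.1, and 3 of 8 ki/ki mice correlated best with their own number. Whether mice of the same number share a batch was not tested. With the block, 0 of the 10 genes passed either threshold, and 46 genes of all tested passed the adjusted one, beside 31 without it. The adjusted threshold gave 64 genes when the first component of the residuals was a covariate and 20 without the filter. The cause was not tested. At 8 mice per genotype, the interval of Ier2, the widest, reached 0.58 on the log2 scale, so that a difference of that size could not be told from none.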

Other observations

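Other gene groups were read from the same fit, limma with Benjamini-Hochberg adjusted p. Among 11 glucocorticoid-induced genes, 7 were higher and 4 lower in ki/ki mice, and 1 passed an adjusted p under 0.1. This was Plin4, a protein of lipid droplets, which rose from 124 ± 23.5 in wt/wt to 164 ± 13.2 in ki/ki mice (SD, n = 8 each, log2 fold change 0.41, adjusted p = 0.0284). Fkbp5 and Sgk1 were not called. Among 7 heat shock genes 4 were higher and 3 lower, and 0 were called. At an unadjusted p under 0.05 there was 1, beside 6.08% of all tested genes. Hspa1a had values of 212 ± 47.4 in ki/ki and 207 ± 30.8 in wt/wt mice.

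Of 9 microglial markers 9 had a higher mean in ki/ki mice (median log2 fold change 0.105), with 0 at an adjusted p under 0.1, 2 higher at an unadjusted p under 0.01, beside 0.856% of all tested genes higher at that threshold, and 4 at an unadjusted p under 0.05, beside 6.08%. Neuronal markers went the other way by little and without a call. Of the pan-neuronal genes 7 of 8 were lower (median log2 fold change -0.027), and of the cortical and hippocampal genes 7 of 7 (-0.024). Of all tested genes 50.5% were lower. Endothelial (4 of 9 higher), oligodendrocyte (2 of 7), cerebellar (4 of 6), choroid plexus (1 of 4), hindbrain (3 of 5 tested) and blood genes (4 of 4) held no gene at an adjusted p under 0.1 or an unadjusted p under 0.01. At an unadjusted p under 0.05 there were 2 choroid plexus genes and 1 cerebellar gene, beside 6.08% of all tested genes. The part of these gene groups in the differences of the activity-response genes was not tested.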
